A study of Rattus norvegicus with 6 samples.

Results

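The small ribosomal subunit processome is the assembly of proteins and U3 small nucleolar RNA that forms on new ribosomal RNA in the nucleolus. Its parts are known to fold the RNA, guide its cuts and chemical marks, and release a precursor of the small subunit that matures in the cytoplasm. The subcomplexes called UtpA, UtpB and Mpp10 join in order as the RNA is made, and demand for them is known to follow cell growth, with the transcription factor MYC as a known activator of many of their genes. The 38 genes described here were given as a list of symbols, and all 38 were found among the 18631 genes of the count table. All 38 also passed the low-count filter, which left 13423 genes.

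The data are 6 RNA sequencing libraries of polyadenylated RNA from rat smooth muscle cells of the vessel, grown in culture. In the group called MIAT knockdown, 3 libraries carry a genotype label naming the knockdown of MIAT, a long noncoding RNA. The 3 libraries titled Scr, called Scr control here, carry the genotype label WT. All 6 libraries carry the same treatment text, a 72 h exposure to siRNAs together with antisense oligonucleotides, 50 nM counted together. What the control cells received is therefore not stated, nor are the donors, the passage or the separateness of the cultures, and a p-value here covers no more than the spread among these libraries, part of which may be technical.

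Total counts ranged from 17793811 to 20121161. Miat was not analysed here, so the labels could not be checked against the targeted gene. Of 8 smooth muscle markers, 7 were present in every library at 4.02 CPM or more, and Des stayed at 0.729 CPM or less. The summed level of the 8 was 5265 to 7656 CPM in the knockdown and 5952 to 7629 CPM in the control libraries. The 5 endothelial markers summed to 4.15 to 5.10 CPM in the knockdown and 5.35 to 9.52 CPM in the control libraries, the 5 leukocyte markers to 4.67 to 8.38 and 6.16 to 16.2 CPM, and the 5 epithelial markers to 1.56 to 2.13 and 1.63 to 2.49 CPM. Cdh5, the endothelial cadherin, and Ptprc, the pan-leukocyte marker, were at 0 in 4 and 5 of the 6 libraries. With the pairing described in the next paragraph, 7 of the 8 smooth muscle markers were below 0, with a median log2 fold change of -0.20; of these Myh11, a smooth muscle myosin gene, fell by 0.51 and Lmod1, leiomodin, by 0.30. Of the 4 endothelial markers tested Kdr, a receptor of vascular endothelial growth factor, fell by 1.02, and none of the 3 leukocyte markers or the 1 epithelial marker tested passed. The library groups overlapped for Myh11 and for Kdr, which was low at 0.831 to 7.60 CPM, but not for Lmod1. Without that pairing the adjusted p in edgeR was 0.516 for Myh11, 0.196 for Lmod1 and 0.422 for Kdr. Of the 8 smooth muscle markers 6 did not pass, and the part of the marker changes in the results was not tested. In such bulk RNA, a change in every cell and a change in the share of cells that express a gene cannot be told apart. Control library 3 lay farthest along the leading principal component, at 47.0 against -32.7 to 20.1 for the others, and the share of counts in the top 10 genes of a library was 10.5% to 14.0% among controls, highest in control library 3, and 8.49% to 9.73% among knockdown libraries. The part of that share in the results was not tested either.

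Libraries with the same number deviated together from their group means, with correlations across genes of 0.68, 0.52 and 0.58, so each difference is given with the number as a block, that is, within pairs of same-numbered libraries. The words rose and fell mean an adjusted p under 0.05 in edgeR's quasi-likelihood test with this block, with Benjamini-Hochberg adjustment over all 13423 genes. The labels state no pairing, and it was taken from these same libraries. In the edgeR fit without the block, planned as the main design, no gene passed, as given below. Levels of a gene across libraries are in CPM, counts per TMM-scaled library total, and the SD is over the 3 libraries of a group. Levels of different genes are compared only in FPKM, which also divides by gene length.

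All 38 genes were expressed in all 6 libraries. Mean FPKM over the libraries ran from 5.40 to 41.9, with a median of 15.8 against 7.08 for all tested genes. The most abundant per length were Tsr1, a GTPase-like factor of late small subunit maturation, at 41.9 FPKM, Imp4, a partner of U3 RNA, at 39.4 FPKM, and Nob1, the nuclease that makes the last cut of the small subunit RNA, at 37.1 FPKM. The least abundant were Utp20, a very large scaffold protein, at 5.40 FPKM, and Utp23, a factor linked to another small nucleolar RNA, at 7.10 FPKM. The 5 genes of late maturation had a median of 36.4 FPKM, the 5 of the U3 and Mpp10 group 23.1 FPKM, and the other role groups 11.3 to 13.5 FPKM. For 36 of the 37 pairs of neighbours in this order the means differed by less than the larger SD of the 6 libraries; the exception was Noc4l, at 9.10 FPKM, above Utp15, at 7.63 FPKM.

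**Figure D1:**
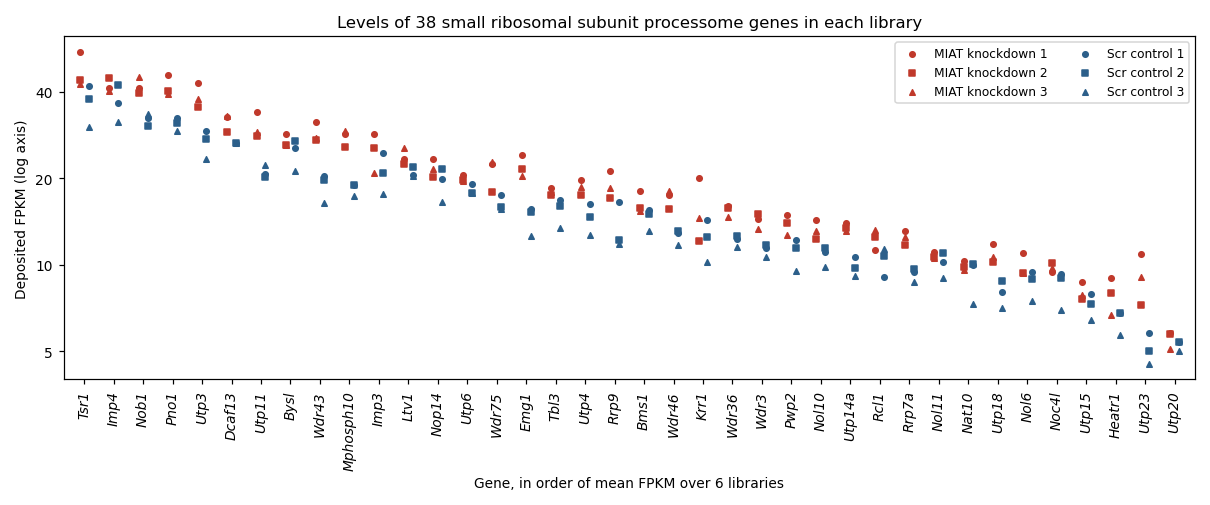
Deposited FPKM (log axis) of the 38 genes in each library, in order of mean FPKM, with red symbols for MIAT knockdown, blue symbols for Scr control and symbol shapes for library numbers 1 to 3. Tsr1 is at the left with a mean of 41.9 FPKM and Utp20 at the right with 5.40 FPKM.

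Processome genes were higher in the knockdown libraries or near the control level, and none fell. With the block, 19 of 38 members rose (50.0%), 0 fell and 19 did not pass, where 10.5% of all tested genes rose and 11.1% fell, 21.6% in all. The list was chosen with earlier results of these data known, so these shares are a description only. The fitted value was above 0 for 36 of 38 members, against 48.5% of all tested genes. The median log2 fold change was 0.22, against -0.01 for all tested genes, and ran from -0.04 for Utp20 to 0.71 for Utp23. The changes were small: the largest was 1.64-fold. The library groups did not overlap in 18 members, all higher in the knockdown, and 14.2% of all tested genes did so in that direction. In 26 of 38 members the knockdown library was higher in all 3 pairs, against 28% of all tested genes.

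The summed level of the 38 genes was 1986, 1842 and 1840.2 CPM in knockdown libraries 1 to 3 and 1677, 1676 and 1531 CPM in control libraries 1 to 3. The sums of the groups did not overlap. Control library 3 had the lowest sum and knockdown library 1 the highest. The median difference within pairs 1, 2 and 3 was 0.25, 0.14 and 0.25 on the log2 scale, so pair 2 showed the smallest. Without control library 3 the unblocked median of the fitted values was 0.16, against 0.23 with all libraries. Scaling by total counts in place of TMM moved the median of all tested genes up by 0.11 in the block fit, and 22 members then passed. The median over all 38 members was then 0.33, against 0.10 for all tested genes. That scaling called 2822 genes higher (21.0%) and 819 lower, against 1412 and 1486 with TMM.

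Without the block, edgeR called 0 members and 0 of all genes (0%), with a smallest adjusted p of 0.104. At an unadjusted p under 0.05 it had 17 members higher and 0 lower, where 10.4% of all tested genes were higher at that level. On the unblocked design DESeq2 called 8 members, all higher, where it called 2.73% of all genes higher, while limma-voom and limma on log2 FPKM called 0. With the block, DESeq2 called 9 members (4.96% of all genes) and limma-voom 19 (10.8%), all higher. With the block and without pair 1, 7 members were called (3.96% of all genes), and 5 without pair 2 (2.56%). Without pair 3 the number was 19 (14.1%), of which 18 were among the 19 above: Wdr75 was lost and Heatr1 gained. Utp23, Wdr43, Emg1 and Mphosph10, 4 members, were called in all 10 fits with the block.

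**Figure D2:**
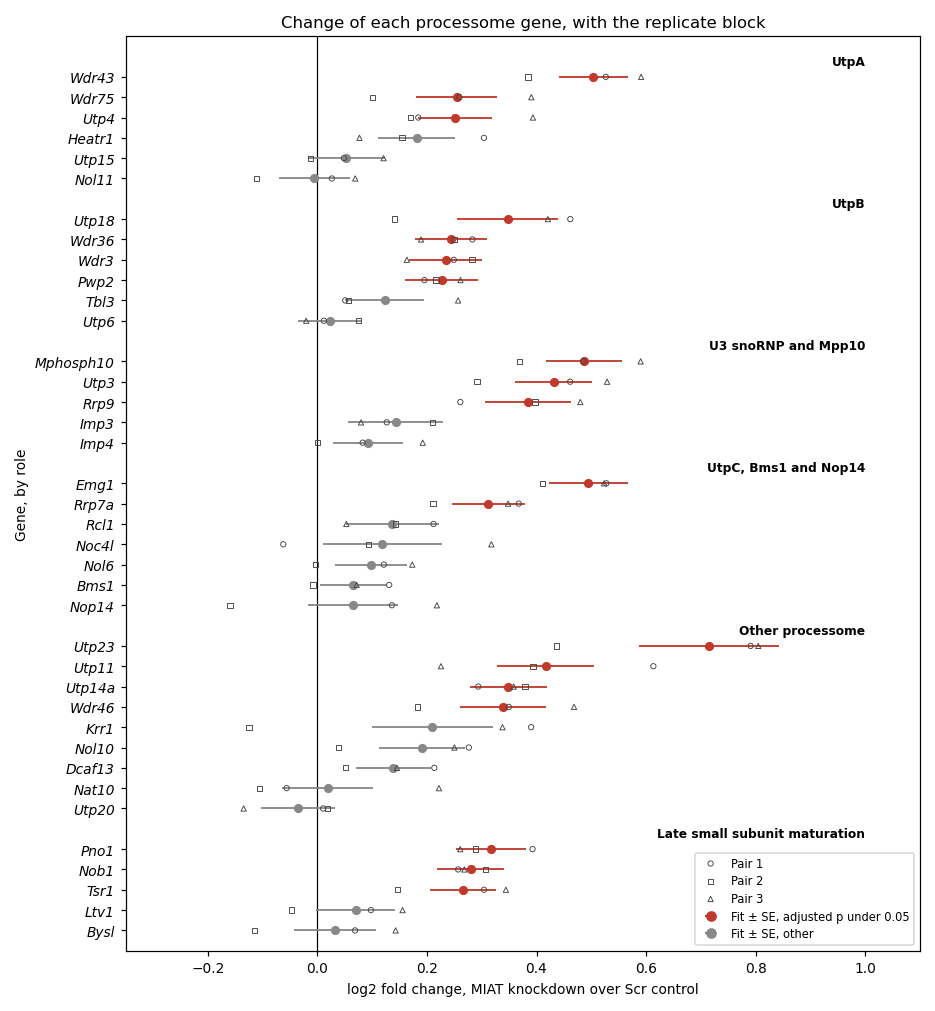
Fitted log2 fold change of each gene, MIAT knockdown over Scr control, by role, with the standard error as bars, red where the adjusted p is under 0.05 and grey otherwise; open symbols are the differences within pairs 1 to 3. The red points lie to the right of 0 in each of the 6 role groups, and the largest value is 0.71 for Utp23.

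UtpA is the first subcomplex to bind new ribosomal RNA, and its members are also known to aid transcription of ribosomal DNA. Of its 6 genes, 3 rose and 3 did not pass, with a median log2 fold change of 0.22. Wdr43, the counterpart of yeast Utp5, was at 102, 91.3 and 91.6 CPM in knockdown libraries 1 to 3 and at 70.5, 69.9 and 60.7 CPM in control libraries 1 to 3. Every knockdown library was above every control library. Wdr43 rose 1.42-fold (log2 fold change 0.50, standard error 0.063, edgeR adjusted p = 0.00276). Utp4, a WD-repeat protein also known as cirhin, rose from 59.7 ± 5.46 to 70.9 ± 3.08 CPM (SD, n = 3). Wdr75, another WD-repeat member, rose from 44.4 ± 1.84 to 53.1 ± 6.33 CPM, with the knockdown 2 value of 45.9 CPM inside the control range. Heatr1, the large scaffold of UtpA, was higher in 3 of 3 pairs by 0.18 on the log2 scale with an adjusted p of 0.0982 in edgeR, while Utp15 (0.05) and Nol11 (-0.01) lay near 0. The calls of Utp4 and Wdr75 ended without pair 1 (0.29 and 0.25), without pair 2 (0.29 and 0.33) and in DESeq2 with the block (0.24 and 0.24), and that of Wdr75 also without pair 3 (0.18). Heatr1 passed without pair 3 (0.23) and with total count scaling (0.29).

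UtpB follows UtpA and binds the leader of the ribosomal RNA precursor together with U3. Of its 6 genes, 4 rose and 2 did not pass, with a median log2 fold change of 0.23. Utp18, a WD-repeat protein known to recruit the RNA exosome, stood at 29.6, 26.5 and 27.0 CPM in knockdown libraries 1 to 3 and at 21.4, 24.0 and 20.1 CPM in control libraries 1 to 3. The groups did not overlap, and control library 2 came closest. Utp18 rose 1.27-fold (log2 fold change 0.35, standard error 0.092, edgeR adjusted p = 0.0301). The WD-repeat genes Wdr3 and Wdr36 each rose 1.18-fold, from 40.0 ± 1.17 to 47.1 ± 3.17 CPM and from 39.8 ± 0.993 to 47.1 ± 2.12 CPM. Pwp2, a further WD-repeat scaffold, rose 1.17-fold, with knockdown 3 (39.0 CPM) just below control 1 (39.2 CPM). Tbl3 had no overlap between groups but a log2 fold change of only 0.12 with an edgeR adjusted p of 0.261, and Utp6 one of 0.02. None of the 4 calls held without pair 1 (0.23 to 0.29) or without pair 2 (0.21 to 0.45), nor in DESeq2 with the block (0.22 to 0.34).

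The U3 and Mpp10 group holds the proteins that sit on U3 RNA and help it pair with the ribosomal RNA precursor. Of its 5 genes, 3 rose and 2 did not pass, with the highest median of the 6 role groups, 0.38. The role medians are not corrected for gene length. The median length was 1687 bases here, and role groups ran from 1671 bases in late maturation to 4362 bases in UtpA. Mphosph10, which encodes MPP10 itself, was at 58.9, 55.4 and 61.8 CPM in knockdown libraries 1 to 3 and at 42.0, 42.8 and 40.9 CPM in control libraries 1 to 3. The control values lay close together, and every knockdown value was above them. Mphosph10 rose 1.40-fold (log2 fold change 0.49, standard error 0.069, edgeR adjusted p = 0.0037). Utp3, the counterpart of yeast Sas10 and a binding partner of MPP10, was at 67.2, 57.5 and 60.2 CPM in the knockdown and at 48.6, 46.9 and 41.5 CPM in the control libraries. Its groups did not overlap, and it rose 1.35-fold with an edgeR adjusted p of 0.00549. Rrp9, a WD-repeat protein of the U3 particle, was at 37.3, 31.1 and 33.3 CPM against 31.1, 23.5 and 23.7 CPM. The lowest knockdown library and control library 1 nearly met, and Rrp9 rose 1.31-fold, a call that ended without pair 2 (0.38). The other pair of MPP10 partners did not pass: Imp3 was at 21.4 ± 3.13 against 19.3 ± 2.52 CPM, and Imp4, among the most abundant members, was at 66.0, 73.7 and 65.4 CPM against 62.3, 73.7 and 57.2 CPM. Library 2 was the highest of each group for Imp4, with the same value of 73.7 CPM in both.

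The next group joins UtpC, the GTPase Bms1 with its partner Rcl1, and the Nop14 module. Of these 7 genes, 2 rose and 5 did not pass, with a median of 0.12. Emg1, a methyltransferase that modifies the small subunit RNA, was at 42.2, 39.0 and 36.4 CPM in knockdown libraries 1 to 3 and at 29.1, 29.2 and 25.2 CPM in control libraries 1 to 3. The groups did not overlap, and number 3 was lowest in each. Emg1 rose 1.41-fold (log2 fold change 0.49, standard error 0.072, edgeR adjusted p = 0.00388). Rrp7a, of UtpC, was at 56.2, 52.4 and 54.7 CPM against 43.4, 45.2 and 42.8 CPM, again with no overlap. It rose 1.24-fold, and the call ended without pair 1 (0.29), without pair 2 (0.36) and in DESeq2 with the block (0.30). Nol6, the other UtpC gene, was at 0.10 on the log2 scale, and the binding partners of Emg1, Nop14 and Noc4l, were at 0.07 and 0.12. Bms1 (0.07) and Rcl1 (0.14) did not pass either. The pair of genes that rose here thus stood beside direct partners with values nearer to 0; the difference between partners was not tested.

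The 9 other processome genes act at several steps, and 4 of them rose while 5 did not pass, with a median of 0.21. Utp23 had the largest change of the list. It was at 15.6, 10.7 and 13.2 CPM in knockdown libraries 1 to 3 and at 8.79, 7.80 and 7.34 CPM in control libraries 1 to 3, with no overlap. Knockdown library 2 was the nearest to the controls, and Utp23 rose 1.64-fold (log2 fold change 0.71, standard error 0.127, edgeR adjusted p = 0.0076). Utp11, a small protein of the early particle, was at 42.6, 36.3 and 37.0 CPM against 27.7, 27.5 and 31.5 CPM. It rose 1.33-fold. Utp14a, known to activate the helicase that removes U3, was at 38.9, 38.7 and 37.5 CPM against 31.6, 29.7 and 29.1 CPM, and Wdr46, a WD-repeat scaffold, at 40.3, 37.4 and 42.6 CPM against 31.5, 32.9 and 30.6 CPM. Neither gene's groups overlapped, and they rose 1.27-fold and 1.26-fold. The calls of Utp11 (0.43), Utp14a (0.33) and Wdr46 (0.42) ended without pair 2, those of Utp11 (0.32) and Wdr46 (0.34) also without pair 1, and those of Utp14a (0.34) and Wdr46 (0.33) in DESeq2 with the block.

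Among the 5 that did not pass, Nol10 (0.19) and Dcaf13 (0.14) were higher in 3 of 3 pairs, and with total count scaling and the block they passed (0.30 and 0.25). Krr1, an RNA-binding protein of the particle, had a knockdown SD of 6.74 CPM, the widest relative to its mean in the list, with 34.8 CPM in knockdown 1 and 21.6 CPM in knockdown 2. Nat10, the acetyltransferase of the small subunit RNA, was at 38.6 ± 1.05 against 38.3 ± 5.50 CPM. Utp20 was at 48.8, 50.1 and 43.7 CPM in knockdown libraries 1 to 3 and at 48.5, 49.5 and 48.0 CPM in control libraries 1 to 3. Its groups overlapped, and it had a log2 fold change of -0.04 ± 0.067 (SE). The value of Nat10 without pair 3 was -0.08.

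The last group holds factors of late maturation of the small subunit precursor. Of its 5 genes, 3 rose and 2 did not pass, with a median of 0.27. Pno1, which holds the unfinished end of the RNA, was at 65.3, 59.6 and 57.3 CPM in knockdown libraries 1 to 3 and at 49.6, 48.7 and 47.7 CPM in control libraries 1 to 3. Nob1, the nuclease that Pno1 partners, was at 59.7, 59.7 and 66.4 CPM against 49.9, 48.1 and 55.0 CPM. The groups of these partners did not overlap, and they rose 1.25-fold and 1.21-fold, with edgeR adjusted p-values of 0.0113 and 0.0147. Tsr1 was at 174, 144 and 137 CPM against 141, 130 and 108 CPM. Its groups overlapped, with knockdown 3 below control 1, yet each pair was higher in the knockdown, and it rose by 0.27 on the log2 scale with an edgeR adjusted p of 0.0165. Ltv1, an export and assembly factor, was at 0.07 on the log2 scale and Bysl, bystin, at 0.03. Without pair 1 and without pair 2 the calls of Pno1 (0.28 and 0.33), Nob1 (0.29 and 0.27) and Tsr1 (0.25 and 0.33) ended; that of Nob1 also ended in DESeq2 with the block (0.27) and with the length correction described below (0.21).

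Gene length moved with the fold changes. Over 5 length classes of equal size, the median log2 fold change of all tested genes went down from 0.10 in the shortest (up to 1661 bases), to -0.14 in the longest (above 6006 bases). From the shortest to the longest class, 15.2%, 12.4%, 11.6%, 7.86% and 5.48% of all tested genes were called higher. The members, at 889 to 8910 bases and a median of 2629 bases against 3159 for all tested genes, had medians of 0.32, 0.14, 0.25, 0.06 and 0.07 from the shortest to the longest class. Of 7 members in the shortest class 5 rose, then 4 of 11, 8 of 10 and 2 of 8, and neither of the 2 members in the longest class, Heatr1 and Utp20, passed. Each of these 5 medians lay above the median of all genes of that class. Spearman's rho between length and log2 fold change was -0.37 across the 38 members and -0.28 across all tested genes, given as a description, since genes of a library share its depth and RNA quality. With a loess correction for length and the block, 17 members passed higher and 0 lower, and 9.51% of all genes passed higher. The median over all 38 members was 0.22 in that fit. Of the 19, 16 were kept: Nob1 (0.21), Pwp2 (0.22) and Wdr75 (0.23) no longer passed, and Heatr1 (0.29) did. The value of Utp20 became 0.11.

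**Figure D3:**
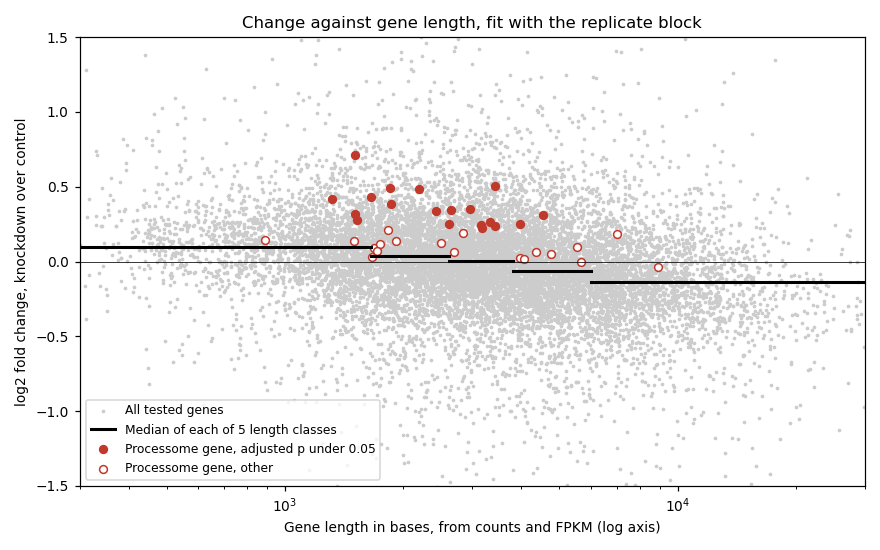
Fitted log2 fold change against gene length (log axis) for tested genes in grey and the 38 processome genes in red, filled where the adjusted p is under 0.05; black bars are the medians of all tested genes in 5 length classes, and genes beyond the axes are not drawn. The bars step down from 0.10 to -0.14, and the filled points lie above them.

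Promoter sequences are shown because many of these genes moved the same way and because Myc, whose protein binds the E-box CACGTG, was itself higher. Myc was at 133, 99.7 and 108 CPM in knockdown libraries 1 to 3 and at 54.4, 51.7 and 47.2 CPM in control libraries 1 to 3. RefSeq promoters of the GRCr8 assembly, 250 bases before to 50 after a gene's start, were at hand for 33 of the 38 genes, matched by symbol. The E-box, which reads the same on both strands, was found in 14 of the 33 (42.4%) and in 9.91% of tested genes with a promoter at hand. Counted per promoter and not per gene, the E-box was in 6.42% of all 33469 promoters. It was in 7 of 17 members that rose and in 7 of 16 that did not pass, and among other tested genes in 13.3% of those called higher and 9.38% of the rest. The core CCGGAAG bound by ETS factors was searched on both strands and shared no bases with the E-box. This core was found in 19 of the 33 (57.6%) and in 17.9% of tested genes with a promoter at hand. Counted per promoter, it was in 8.75% of all promoters. It was in 12 of 17 members that rose and 7 of 16 that did not, and among other tested genes in 22.1% of those called higher and 17.3% of the rest; no difference between these shares was tested. Such a match is a string of letters, and no binding was measured. The part of Myc in the changes of the members was not tested. Among members, only Wdr75, Rrp7a, Nol11 and Ltv1 had an E-box upstream of the first annotated start of the gene. An ETS core lay upstream of that start in Emg1, Utp3, Imp4 and Utp6, printed below, and in Ltv1, Wdr3, Bms1, Utp11, Rrp7a and Bysl. Only the E-box is marked in the stretches of Rrp7a and Ltv1, and that of Rrp7a ends inside an ETS core. Other matches lay after a start, as in Tsr1, or at a start inside the gene, by 16945 bases in Nol6 and 5804 in Utp4. This was not checked for the other tested genes. The stretches printed below lie upstream of the first annotated start, 5′ to 3′ on the gene's strand, with the E-box in capitals for Wdr75 and Rrp7a, which rose, and for Nol11 and Ltv1, which did not pass, and with the ETS core, on either strand, in capitals for Emg1 and Utp3, which rose, and for Imp4 and Utp6, which did not pass.
Wdr75: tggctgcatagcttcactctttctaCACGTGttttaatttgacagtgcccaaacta
Rrp7a: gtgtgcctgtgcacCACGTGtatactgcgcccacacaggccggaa
Nol11: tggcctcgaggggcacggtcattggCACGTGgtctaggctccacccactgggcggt
Ltv1: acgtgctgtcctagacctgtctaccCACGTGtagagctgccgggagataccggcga
Emg1: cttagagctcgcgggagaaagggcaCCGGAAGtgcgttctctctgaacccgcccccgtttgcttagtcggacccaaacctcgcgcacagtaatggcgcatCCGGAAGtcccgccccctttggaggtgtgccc
Utp3: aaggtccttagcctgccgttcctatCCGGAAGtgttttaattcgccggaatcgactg
Imp4: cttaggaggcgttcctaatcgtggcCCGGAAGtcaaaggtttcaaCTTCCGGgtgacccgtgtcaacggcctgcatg
Utp6: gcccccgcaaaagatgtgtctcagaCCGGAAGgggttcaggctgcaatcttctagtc
In GRCr8 these stretches are chr9:55395047-55395102 for Wdr75 and chr9:44149906-44149982 for Imp4 on the plus strand and, on the minus strand, chr7:116153070-116153114 for Rrp7a, chr10:92641498-92641553 for Nol11, chr1:9398588-9398643 for Ltv1, chr4:159203835-159203966 for Emg1, chr14:19801493-19801549 for Utp3 and chr10:65426017-65426073 for Utp6. The E-box starts 160 bases before the start of Wdr75, 236 before that of Rrp7a, 134 before that of Nol11 and 61 before that of Ltv1. The ETS cores start 115 and 40 bases before the start of Emg1, 104 before that of Utp3, 98 and 78 before that of Imp4 and 120 before that of Utp6.

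The counts in other lists of genes that make ribosomes stand beside 10.5% of all tested genes that rose and 11.1% that fell. These lists too were chosen with earlier results of these data known. Of 36 further small subunit factors, 15 rose (41.7%), 1 fell and 20 did not pass, with a median of 0.22. Nop58 and Fbl, core proteins of small nucleolar RNA particles, rose 1.34-fold and 1.32-fold, Dimt1, a methyltransferase of the small subunit RNA, 1.35-fold, and Ak6 1.34-fold. The gene that fell was Pdcd11, the counterpart of yeast Rrp5 and outside the naming rule, with a log2 fold change of -0.18. The calls of Dimt1, Ak6 and Pdcd11 ended without pair 1 (0.42, 0.41 and -0.16), without pair 2 (0.49, 0.39 and -0.18) and in DESeq2 with the block (0.42, 0.41 and -0.19), and that of Fbl without pair 2 (0.37). With the length correction Ak6 (0.31) and Pdcd11 (-0.07) did not pass, and Pdcd11 passed neither after scaling by total counts (-0.068) nor without the low-count filter (-0.17).

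Of 58 large subunit assembly factors, 28 rose (48.3%), 1 fell (Mdn1, a very large ATPase, at -0.29) and 29 did not pass, with a median of 0.24. Mdn1, outside the naming rule, was called neither without pair 2 (-0.31) nor after scaling by total counts (-0.18), and the length correction left a value of -0.0068. Ppan, a large subunit maturation factor, rose 1.85-fold, Rrs1 1.55-fold, Gnl3, which encodes nucleostemin, 1.52-fold and Tma16 1.46-fold, the last no longer called without pair 1 (0.49) or pair 2 (0.59). Of 15 RNA polymerase I genes 5 rose (33.3%) and 10 did not pass (median 0.24), and of 30 small subunit ribosomal protein genes 6 rose (20%) and 24 did not (median 0.14). No test of a difference between lists was made. Dhx9, a helicase that the title of the series names, was at 183, 192 and 158 CPM against 211, 214 and 192 CPM, and fell by 0.22 on the log2 scale, a call that ended without pair 1 (-0.22), without pair 2 (-0.25), after the length correction (-0.17) and after scaling by total counts (-0.11).

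**Figure D4:**
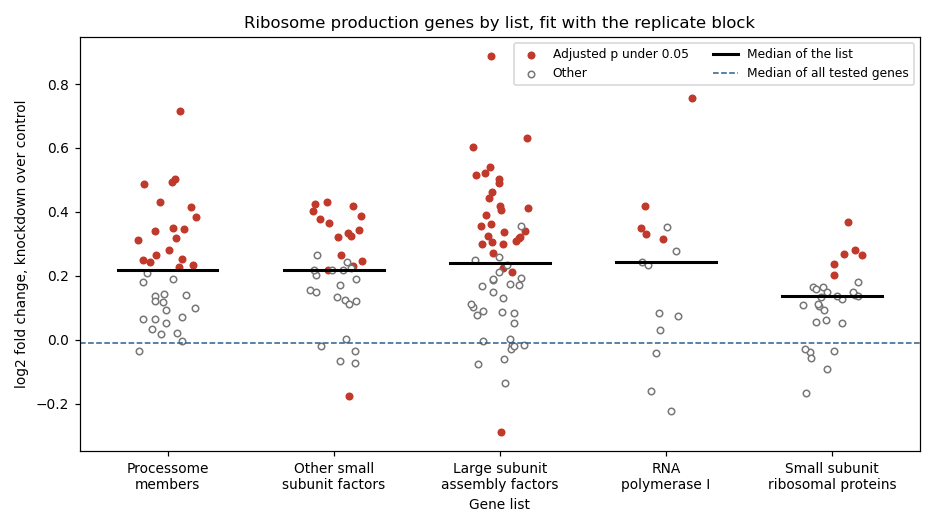
Fitted log2 fold change of each gene in 5 lists of ribosome production genes, red where the adjusted p is under 0.05, with black bars for list medians and a dashed line for the median of all tested genes. The medians are 0.22, 0.22, 0.24, 0.24 and 0.14 from left to right.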

How the data were processed

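RNA sequencing of poly(A) RNA gave 3 MIAT knockdown and 3 Scr control libraries of rat smooth muscle cells. The authors deposited counts, whole numbers per gene symbol, and FPKM values; which aligner, counter, strand setting and build they used is not given in the sources used here. In the deposited tables each FPKM above 0 equals the count divided by 1 length per gene and the library total, within a relative spread of 3.4e-07, which gave the gene lengths. Counts were filtered with filterByExpr, scaled by TMM and fitted with edgeR 4.0.16 in R 4.3.3, without a block as the main design and with the library number as a block, because every same-numbered pair had a correlation of deviations over 0.1; the labels do not state a pairing. The biological coefficient of variation was 19.7% without and 8.09% with the block, on 4 and 2 residual degrees of freedom. Standard errors of edgeR values were derived as the absolute log2 fold change divided by the square root of the test's F statistic. Alternatives used DESeq2 1.42.0, limma 3.58.1 (voom, or a trend on log2 FPKM with pseudocounts of 1 and 0.1), other scalings and filters, a loess length correction (span 0.5), a minimum fold of 1.2, and fits without each library or pair. No 2 libraries of a group agreed within sampling noise (chi-square per degree of freedom 20.6 to 83.6). The code was tested on simulated data. Values in all libraries are given for the 12 members with the largest called change, the 3 highest and 2 lowest in FPKM and the largest of each role, and up to 4 genes of each other factor list. The members and lists were chosen with earlier results of these data known. Totals of 17793811 to 20121161 counts per library set the precision. Reads shared with pseudogenes or overlapping genes cannot be told apart.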

Additional observations from a re-analysis of the deposited data

How the results depend on the processing

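With the replicate block, where same-numbered libraries are paired, 2898 genes and 19 members higher were called, against 0 and 0 without it. In the other fits with the block the counts of genes and of members higher were 1595 and 9 in DESeq2, 3051 and 19 in limma-voom, 3641 (2822 of them higher) and 22 with total counts, 3128 and 19 with no low-count filter, 2294 and 17 with the length correction, and 396 and 4 against a minimum fold of 1.2. They were 1195 and 7 without replicate 1, 736 and 5 without replicate 2, and 4124 and 19 without replicate 3. DESeq2 without the block called 699 genes and 8 members. No member was called lower in any of the 25 fits. The members' median log2 fold change was 0.23 without the block, 0.16 to 0.25 when each library was left out, 0.33 with total counts without and with the block, and 0.30 and 0.32 in limma on log2(FPKM + 1) and log2(FPKM + 0.1). Values of 31 members stayed above 0 in every fit, and 7 members near 0 crossed it without being called. The cause was not tested. Utp20 and Nol11, below 0 in the unblocked fit, were above it on log2(FPKM + 1) (0.061 and 0.093), on log2(FPKM + 0.1) (0.071 and 0.10), with total counts without (0.074 and 0.098) and with the block (0.072 and 0.10), with the length correction without (0.11 and 0.072) and with the block (0.11 and 0.074), and without knockdown replicate 3 (0.026 and 0.0080). Utp20 was so without pair 3 (0.012), and Nol11 with no filter without (0.0023) and with the block (0.0045), without control replicate 2 (0.044) and without pair 2 (0.049). Without control replicate 3, Bysl (-0.044), Nat10 (-0.11), Nop14 (-0.016) and Utp15 (-0.0011) were below 0, as were Bysl (-0.026), Nat10 (-0.085) and Nop14 (-0.014) without pair 3. Bysl was also below 0 with the length correction without (-0.030) and with the block (-0.028), Nat10 with DESeq2 size factors (-0.00011) and without knockdown replicate 1 (-0.0014), and Utp6 without control replicate 2 (-0.0070) and without pair 2 (-0.0036). Over the fits that left out 1 library, values ran from -0.059 to 0.044 for Nol11, -0.071 to 0.026 for Utp20, -0.11 to 0.073 for Nat10, -0.044 to 0.089 for Bysl, -0.0070 to 0.036 for Utp6, -0.016 to 0.13 for Nop14 and -0.0011 to 0.097 for Utp15. Calls with the block rest on 3 pairs and 2 residual degrees of freedom, and the labels state no pairing.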
